A study of Mus musculus with 2 samples.

Results

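Among 33885 cells dissociated from mouse corneal epithelium, 51 carried the deposited class name Immune, 20 of 17465 in the control library and 31 of 16420 in the dry eye library. The class was taken as deposited, by its exact name, and set against the other 12 classes, which carry the epithelial names LSC, TAC1, TAC2, Basal, Wing, Squam and Conj, 5 of them also in a starred form whose meaning is not stated. Both libraries came from the same 7 mice, males of the strain C57BL/6J at 10 weeks of age, whose right lacrimal glands, inside and outside the orbit, had been removed 9 days before. The dry eye library pooled 6 right eyes and the control library 7 left eyes, so the control eyes belonged to operated animals. Each group was thus 1 library of pooled eyes, no replicate error could be measured, and no test of a group difference was possible. Intervals are exact, at 95%, and cover no error but that of counting. The epithelium was peeled off with an enzyme before trypsin was added, so the position of a cell within or under the epithelium was not recorded.

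The corneal epithelium of mice holds sparse bone marrow-derived cells, mainly Langerhans cells and other dendritic cells, macrophages and some T cells. Antigen-presenting cells load peptides onto MHC class II, a pair of alpha and beta chains that the invariant chain Cd74 escorts through the cell. Macrophages are known for making C1q, the recognition part of the classical complement pathway, whose subunits are encoded by C1qa, C1qb and C1qc.

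The Immune cells were shallow. Control Immune cells held 510 to 7383 UMIs (unique molecular identifiers, 1 per captured RNA molecule) with a median of 1351, and dry eye Immune cells 502 to 6697 with a median of 918, whereas the medians of all other cells were 8255 and 9099. In total 35442 and 49982 UMIs stood behind the class, so 1 UMI came to 28.2 CPM (the usual unit of counts scaled to a common total, here over all UMIs of the class) in control and 20.01 CPM in dry eye. Reads were taken at the poly(A) end, and levels of different genes are not compared here. The libraries shared 74 cell barcodes, and 0 of them belonged to an Immune cell of either library. The mitochondrial share had a median of 2.37% in control and 2.33% in dry eye Immune cells, against 1.76% and 1.74% in the other cells.

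Immune cells made up 0.115% of the control library (95% interval 0.0700 to 0.177%) and 0.189% of the dry eye library (0.128 to 0.268%). The ratio of the shares, 1.65, had an interval of 0.910 to 3.05, which includes 1. Among cells with at least 1000 UMIs, 15 of 17424 control cells (0.0861%) and 14 of 16367 dry eye cells (0.0855%) were Immune, so the surplus in dry eye lay among cells under that depth, 17 of 31 in dry eye and 5 of 20 in control. In pooled suspensions, more leukocytes in the tissue and more of them surviving dissociation cannot be told apart.

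The class name was checked on 8 marker genes. These levels are a description, since the cells are likely to have been classed on the same counts. Tyrobp, the signalling adaptor of many myeloid receptors, stood at 3724 CPM in control and 2061 CPM in dry eye Immune cells, against 0.0313 and 0.0483 CPM in all other cells. Cd74 stood at 22854 and 16066 CPM, against 0.434 and 0.440 CPM elsewhere. Cd52, a short surface glycoprotein of leukocytes, was near the same level in both libraries, at 2257 and 2321 CPM, against 0.0888 and 0.126 CPM. All 8 markers had their highest level in Immune cells, and the next class, LSC* or Wing* for 7 of them, reached 0.250 CPM for Cd52, 0.334 CPM for Tyrobp and 3.57 CPM for H2-Ab1. Mmp12, a macrophage metalloelastase, stood at 22.0 CPM in LSC* against 691 CPM in Immune cells. Cd207, which encodes langerin of Langerhans cells, had 11 UMIs in all, every one in a control Immune cell.

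**Figure D1:**
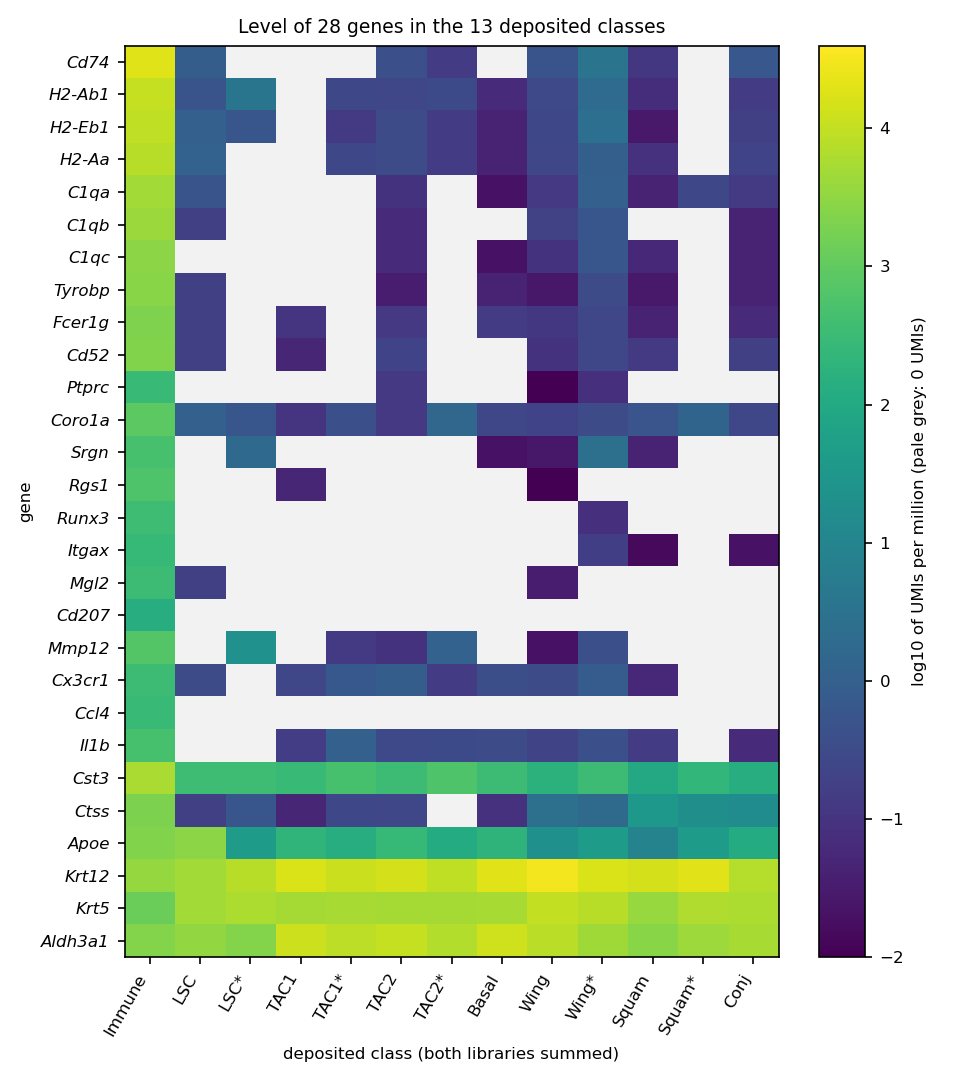
Level of 28 genes (vertical axis) in each of the 13 deposited classes (horizontal axis), both libraries summed, as colour on a log10 scale of CPM, with pale grey where a class held 0 UMIs. Leukocyte genes such as Cd74 (18882 CPM in Immune) were bright in 1 column, whereas Krt12 and Krt5 were at their lowest in Immune cells, though present, and Aldh3a1 was found in every class.

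Over all genes with at least 20 UMIs in both libraries together, 411 of 15237 (2.7%) were called higher in Immune cells than in all other cells, meaning that the lower bound of the ratio of CPM was at least 4. By the mirror rule, an upper bound of at most 0.25, 66 genes (0.433%) were called lower. In the control library alone 278 of 14132 genes were higher (1.97%) and 51 lower (0.361%), and in the dry eye library alone 251 of 14371 were higher (1.75%) and 36 lower (0.251%). The 15 genes with the highest lower bound of that ratio were Cd74, H2-Ab1, H2-Eb1, H2-Aa, Tyrobp, C1qa, C1qb and C1qc together with Rgs1, Runx3, Ms4a7, Alox5ap, Clec4a2, Fcgr2b and Ccl4. Rgs1, a brake on G protein signalling from chemokine receptors, had 22 control and 31 dry eye UMIs in Immune cells and 2 UMIs in all other cells together. Runx3, a transcription factor needed for Langerhans cells and for cytotoxic lymphocytes, had 14 and 17 UMIs, with 1 elsewhere. Alox5ap, Clec4a2, Fcgr2b and Ccl4 had 0 UMIs outside the class, so with 3 UMIs as a floor over all other cells they were at least 35759-fold, 35759-fold, 31095-fold and 38869-fold higher.

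Of the 8 markers, 7 had enough UMIs for that rule and all 7 were called higher. The markers were chosen with earlier results of these data known, so these calls are no support for the class name. Cd52 was also counted in the pan-leukocyte list. The pan-leukocyte list, genes of the leukocyte cytoskeleton and signalling, had UMIs for 18 of 18 genes in Immune cells, and 10 of the 11 with enough UMIs for a call were higher, at 6433 CPM in control and 6202 CPM in dry eye against 79.5 and 91.5 CPM elsewhere. Ptprc, the leukocyte common antigen Cd45, was found in 10 of 20 control cells with 16 UMIs and in 6 of 31 dry eye cells with 10 UMIs. Coro1a, an actin regulator of leukocytes, had 37 and 39 UMIs and Srgn, the granule proteoglycan serglycin, 17 and 25. At medians of 1351 and 918 UMIs per cell, a cell without a Ptprc UMI cannot be read as one that lacks the messenger.

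MHC class II genes were among the leading genes of the class. Of the 15 genes on that list 10 were analysed, all 10 had UMIs in Immune cells, and 8 of 9 with enough UMIs were higher than elsewhere. Their sum was 59252 CPM in control (95% interval 56744 to 61841) and 43856 CPM in dry eye (42039 to 45731), against 13.6 and 13.8 CPM in all other cells. Expressed per cell, Cd74 with H2-Aa, H2-Ab1 and H2-Eb1 took 2.82 to 9.60% of the UMIs of each of the 20 control cells, with a median of 5.78%. In dry eye the same share ran from 0 to 9.48% with a median of 3.87%, so the lowest dry eye cells fell below every control cell while the highest overlapped.

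H2-Ab1, the beta chain of I-A, had between 5 and 47 UMIs in a control cell, and between 0 and 69 in a dry eye cell. H2-Aa, its alpha chain, had 316 UMIs in control and 341 in dry eye Immune cells. H2-Eb1, the beta chain of I-E, had 388 and 427 UMIs. C57BL/6 mice do not make I-E protein because their alpha chain gene is broken, yet the Eb1 messenger is known to be made. Around this core, H2-DMa and H2-DMb1, the chains of the peptide exchange factor H2-DM, had 39 and 33 UMIs and 19 and 36 UMIs. Ctss, the protease cathepsin S that trims the invariant chain, had 83 and 84 UMIs, and Ciita, the master switch of class II transcription, 4 and 4. Costimulatory Cd86 had 7 UMIs in control and 2 in dry eye, and Cd80 had 0 and 1.

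Class II promoters carry a conserved X box and Y box, bound by the RFX and NF-Y complexes and needed for Ciita to act. The 110 bases before the start are shown for H2-Aa and H2-Eb1, which were among the 15 leading genes, and for H2-DMb1 because it held both boxes, a choice made after the search, with matches to the Y box (GATTGG) and the X box (AACNGATG), on either strand, in capitals. The sequences are RefSeq's for build GRCm38.p6, read 5′ to 3′ on the gene's strand.
H2-Aa: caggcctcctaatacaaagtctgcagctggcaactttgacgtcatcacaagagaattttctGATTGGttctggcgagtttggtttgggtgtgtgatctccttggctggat
H2-Eb1: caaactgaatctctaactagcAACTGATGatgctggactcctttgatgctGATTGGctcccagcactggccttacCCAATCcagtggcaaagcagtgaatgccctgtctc
H2-DMb1: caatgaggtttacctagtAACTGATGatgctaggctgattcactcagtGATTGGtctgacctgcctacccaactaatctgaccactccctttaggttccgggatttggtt
They lie at chr17:34287824-34287933 on the minus strand for H2-Aa, and on the plus strand at chr17:34305757-34305866 for H2-Eb1 and chr17:34153081-34153190 for H2-DMb1.

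The Y box began 49 bases before the start of H2-Aa and 62 before that of H2-DMb1, and the X box began 89 bases before that of H2-Eb1 and 92 before that of H2-DMb1. Of the 15 genes on the list, 10 had an entry in RefSeq's promoter table, not the same 10 as were analysed in the cells, with 11 promoters between them that ran from 250 bases before to 50 after the start. A Y box stood in 8 of the 11, an X box in 5 and both in 4. Among all 32851 promoters of that length 16.1% held the Y box letters and 2.32% the X box letters. A match describes letters only, and binding was not measured.

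C1q messengers were the other leading group. C1qa had 248 UMIs in control cells, 1 to 26 per cell and present in 20 of 20, and 159 in dry eye cells, 0 to 28 per cell and present in 21 of 31. C1qb had 206 UMIs in 19 control cells and 134 in 23 dry eye cells. C1qc had 154 UMIs in 20 control cells and 87 in 20 dry eye cells. All 3 genes lie side by side on the minus strand of chromosome 4 of mm10, with C1qb at 136880129 to 136886187, C1qc at 136889804 to 136893065 and C1qa at 136895917 to 136898803. Together the 3 messengers took 0.392 to 2.59% of the UMIs of a control cell (median 1.89%) and 0 to 3.19% of those of a dry eye cell (median 0.783%).

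**Figure D2:**
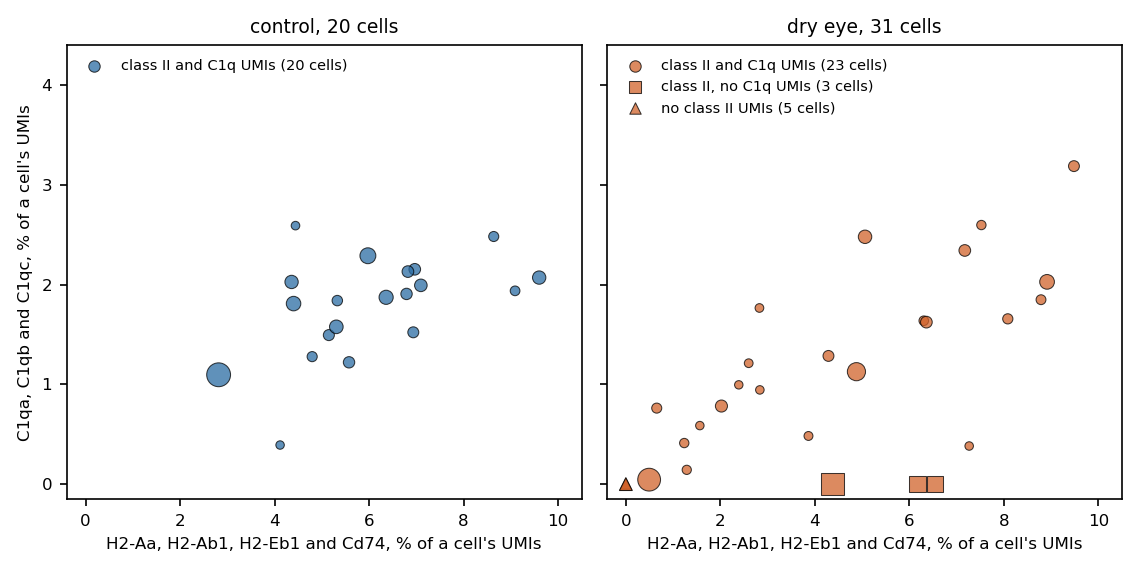
Each point is 1 Immune cell of control (left, 20 cells) or dry eye (right, 31 cells), placed by its percentage of UMIs from 4 class II genes (horizontal) and from the 3 C1q genes (vertical), with the point area growing with the cell's total UMIs and the shape giving its group. All control cells carried both kinds of messenger, whereas 3 dry eye cells carried class II without C1q and 5 carried neither.

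The macrophage list as a whole had UMIs for 16 of its 18 analysed genes, and 13 of 15 with enough UMIs were higher than in all other cells. It stood at 23193 CPM in control and 10704 CPM in dry eye Immune cells, against 126 and 133 CPM elsewhere. Besides C1q it was carried by Aif1, the actin-binding protein Iba1 (28 and 27 UMIs), Csf1r, the receptor for colony-stimulating factor 1 (20 and 16), and Cd68, a lysosomal glycoprotein (18 and 13). Cx3cr1, the fractalkine receptor, had 20 UMIs in 10 control cells and 8 UMIs in 5 dry eye cells. Other macrophage genes had few UMIs, with Adgre1 (F4/80) at 3 and 0, Mrc1 at 1 and 2, the lysozyme gene Lyz2 at 0 and 6, and Folr2 and Timd4 at 0 in both libraries.

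Fc and lectin receptors with their adaptors stood at 8747 and 5462 CPM against 17.9 and 17.5 CPM elsewhere, and 6 of 8 with enough UMIs were higher. Fcer1g, the gamma chain that signals for activating Fc receptors, had 92 UMIs in 18 control cells and 84 in 20 dry eye cells. Cd300c2, a paired activating receptor, had 18 and 23 UMIs and Fcgr2b, the inhibitory Fc receptor, 8 and 12. Lysosomal genes were abundant too, at 16760 and 12144 CPM, but here the epithelium also scored 2507 and 2566 CPM and 7 of 16 were called higher. Cst3, the cathepsin inhibitor cystatin C, was found on both sides, with 6715 and 5162 CPM in Immune cells and 199 and 224 CPM in all other cells.

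Dendritic and Langerhans cell genes were present at low counts beside the macrophage genes. Of the 13 genes on the conventional dendritic cell list 7 were analysed, and Flt3, Xcr1, Clec9a, Cd209a, Clec10a and Sept3 were not. The list had 33 UMIs in each library, from Mgl2, a galactose-binding lectin (19 and 10), Itgax, the integrin Cd11c (7 and 15), Irf8 (3 and 7) and Batf3 (4 and 1). Zbtb46, Itgae and Irf4 were at 0. Langerhans cell genes had 27 UMIs in control and 20 in dry eye, 14 and 17 of which were Runx3. Of the 17 in dry eye, 7 lay in cells with class II and C1q, 8 in cells with class II but no C1q and 2 in cells without class II. Cd207 was found in 6 control cells, all of which also held C1q and class II UMIs, and in 0 of 31 dry eye cells. The 6 cells held 1 or 2 Cd207 UMIs each, and no fold is given. Of the 9 migratory dendritic cell genes analysed, 7 were at 0, and Cd83 had 0 and 4 UMIs. Siglech, a plasmacytoid dendritic cell receptor, had 4 UMIs in 4 control cells and 0 in dry eye.

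Genes of other leukocytes were scarce. Of the neutrophil list 5 of 8 analysed genes were at 0, S100a8 had 0 and 1 UMIs, S100a9 0 and 2, and the list's 13 dry eye UMIs included 10 of Il1r2, the decoy receptor for interleukin 1 (200.1 CPM, against 4.83 CPM in the other cells). S100a8 and S100a9 stood at 60.01 and 181 CPM in the other dry eye cells, above their 20.01 and 40.01 CPM in Immune cells. B and plasma cell genes were limited to 4 and 5 UMIs of Ighm, and genes of mast cells and group 2 innate lymphoid cells had 0 UMIs in both libraries, with upper Poisson limits of 104 CPM in control and 73.8 CPM in dry eye. Of the monocyte list 4 of 10 genes were analysed, with 2 and 8 UMIs, and the gamma-delta T cell list had 1 UMI in each library. Ccr2 and Trdc were not analysed here. Goblet cell, endothelial, Schwann cell and blood cell genes also had 0 UMIs, while melanocyte and stromal keratocyte genes had 1 UMI each in all.

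T and natural killer cell genes were seen mainly in dry eye. The T cell list had 3 UMIs in control, all of Il7r, the interleukin-7 receptor, and 35 UMIs in dry eye, where 4 cells held at least 2 of its genes. Of its 15 genes analysed 5 were at 0 (Trac, Cd5, Bcl11b, Tcf7 and Lef1), as were Gzma and Eomes of the natural killer list, and Cd4 and Cd8a were not analysed here. Cd3g, a chain of the T cell receptor complex, had 5 UMIs in 3 dry eye cells and 0 in control and in every other class. Nkg7, a cytotoxic granule protein, had 6 UMIs in 5 dry eye cells, and Klrk1, the receptor NKG2D, 4 UMIs in 3. In control 106 genes were seen in 1 or 2 cells and 484 in 3, and in dry eye 88 and 517, a step that a gene filter on carrying cells would leave. A gene at 0 in a whole library may therefore stand for up to 2 carrying cells. Among the genes named, this holds in control for Cd3g, Cd3d, Cd3e, Nkg7, Klrk1, Cxcr6 and Cd83. In dry eye it holds for Cd207, Ccl4, Ccl20, Pf4 and Siglech.

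**Figure D3:**
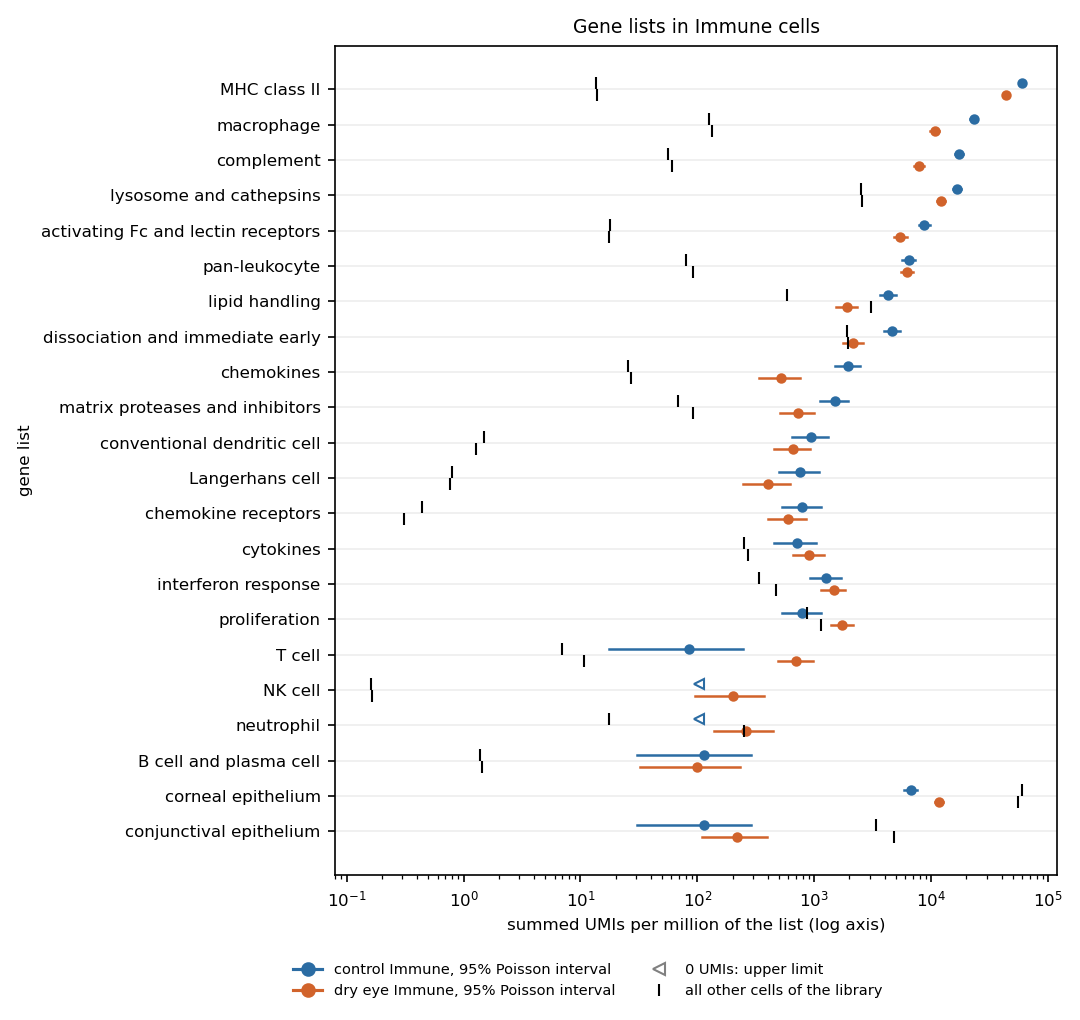
Summed level of 22 gene lists (vertical axis) in control (blue) and dry eye (orange) Immune cells, in CPM on a log axis, with 95% Poisson intervals, open triangles at the upper limit where a list had 0 UMIs, and black ticks for all other cells of the same library. MHC class II genes stood at 59252 and 43856 CPM, macrophage genes at 23193 and 10704 CPM, and the corneal epithelium list below the ticks, at 6659 and 11624 CPM.

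Secreted and signalling genes were few. Of the 13 chemokine genes analysed 3 were called higher than in all other cells, with 69 UMIs in control and 26 in dry eye, among them Cxcl16, the ligand of Cxcr6, at 28 and 24. The cytokine list had 25 and 45 UMIs, with 2 of 10 genes called higher. Mmp13, a collagenase, had 13 UMIs in 9 control cells and 9 UMIs in 3 dry eye cells, 7 of them in 1 cell. Interferon response genes stood at 1270 and 1461 CPM, against 334 and 469 CPM elsewhere, with 3 of 15 called higher, and Bst2 (tetherin) had 13 and 11 UMIs. Proliferation genes stood at 790 and 1741 CPM, against 870 and 1146 CPM in all other cells, and 0 of 10 were called. Their ratio of dry eye over control within the class was 2.20, and 1 of 2 genes with enough UMIs was called higher, Tubb5, a tubulin, with 6 and 22 UMIs (2.60, 1.02 to 7.84). That call ended without the cell with the most Krt12 (2.59, 0.996 to 7.93).

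When the 51 cells were sorted by class II (H2-Aa, H2-Ab1, H2-Eb1, Cd74) and C1q UMIs, a split made after their values were seen, 3 groups resulted. Cells with both numbered 20 of 20 in control (95% interval 83.2 to 100%) and 23 of 31 in dry eye (74.2%, 55.4 to 88.1%). Cells with class II but no C1q numbered 0 and 3, and cells without class II 0 and 5 (16.1%, 5.45 to 33.7%), while 0 of 20 in control allows a share of up to 16.8%.

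The cells without C1q were deep, with 3076, 3111 and 6594 UMIs, while the 23 dry eye cells with C1q had a median C1q share of 1.21%. Their Cd74 came to 76, 67 and 118 UMIs, and each had 1 or 2 of Itgax. S100a4, a calcium-binding protein of motile cells, had 32, 26 and 17 UMIs in them and 0 in all 43 cells with C1q. Ifitm1, an interferon-induced membrane protein, had 138 UMIs in the 3 cells and 9 in the 43, and the intermediate filament gene Vim 52 and 4. Il1b, the inflammatory cytokine interleukin 1 beta, had 10, 8 and 4 UMIs in these cells, 22 of the 31 in dry eye. Mmp12 and Apoe, the lipid carrier apolipoprotein E, were both at 0 in them but had 59 and 188 UMIs in the 43. One of the 3 also held 8 UMIs of Epcam, an adhesion molecule of epithelium and of Langerhans cells, with only 3 of Krt12 among 6594.

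The cells without class II held 742 to 1784 UMIs, and 0 of Tyrobp, Fcer1g, C1q and all 4 class II genes. Cd52 was found in every one, with 1, 5, 3, 7 and 9 UMIs, and Nkg7 in every one with 1 or 2. Il7r had 10 UMIs over the 5 cells, Cxcr6, a chemokine receptor of tissue-resident lymphocytes, 6 in 4 cells, Cd3g 5 in 3 and Cd3d 4 in 2. Icos, a T cell costimulator, had 4 UMIs in 2 cells and Ptprcap, a partner of Cd45 in lymphocytes, 6 in 3. S100a4 was shared with the previous group, at 26 UMIs in 4 of the 5. Each cell rested on few lymphocyte UMIs. Of the 31 dry eye cells 4 carried Cd3g or Cd3d, all of them among these 5.

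**Figure D4:**
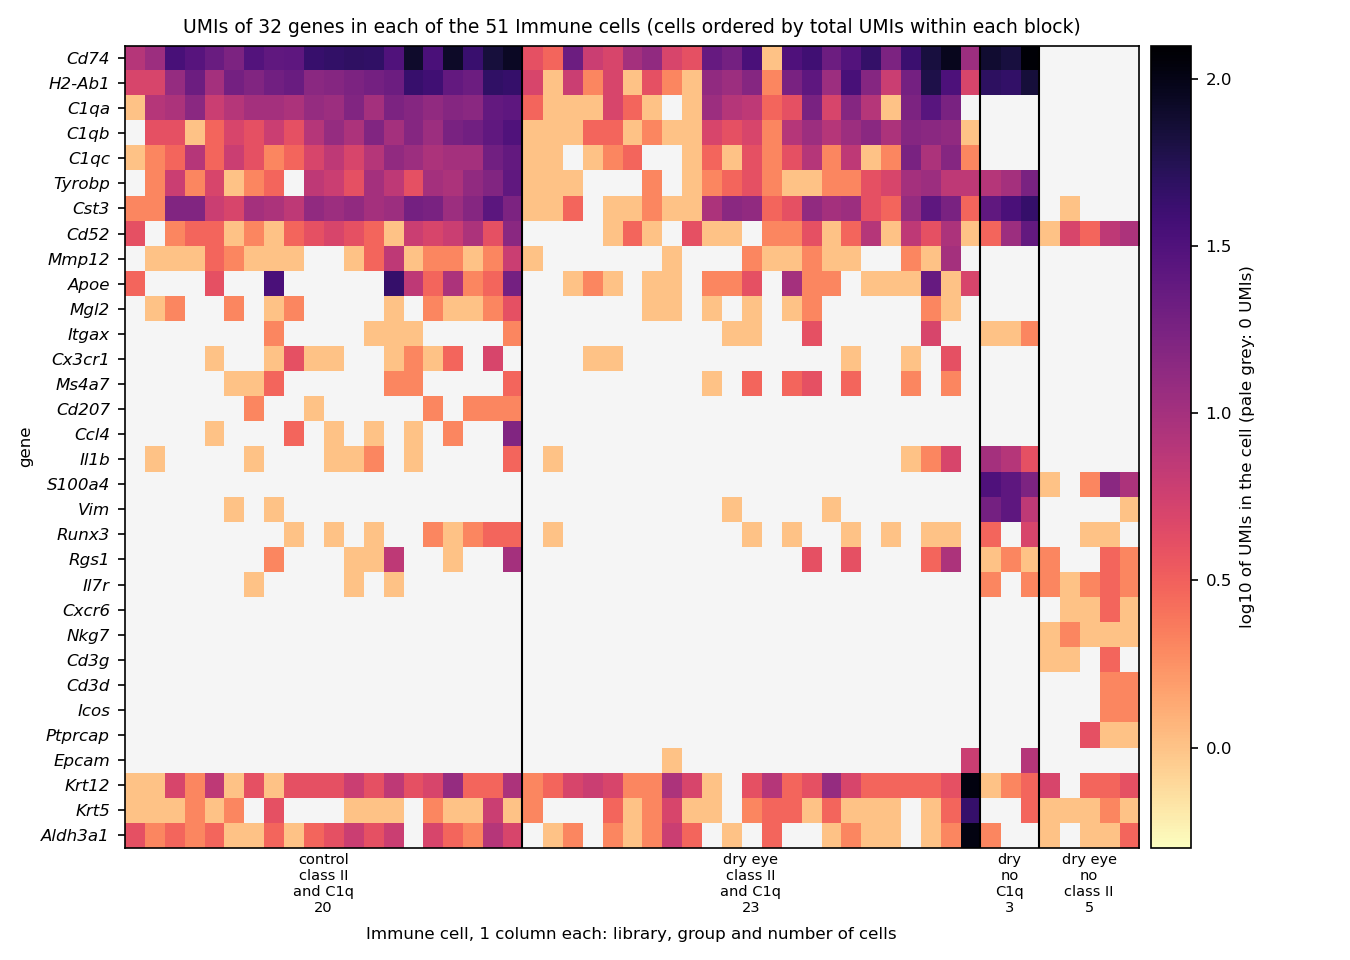
UMIs of 32 genes (vertical axis) in each of the 51 Immune cells (1 column each, grouped by library and by class II and C1q UMIs, and ordered by depth within a block), as colour on a log10 scale with pale grey for 0. Class II and C1q fill the left blocks, S100a4, Vim and Il1b the block of 3 cells, and Nkg7, Cxcr6 and Cd3g the block of 5, while Krt12 appears in 49 of the 51 columns.

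Epithelial messengers were found in nearly every Immune cell. Krt12, the keratin of differentiated corneal epithelium, had 1 to 12 UMIs in each of the 20 control cells and 0 to 108 in the dry eye cells, 2 of which had none. Its level was 2455 CPM in control Immune cells, 11.3% of that of all other cells, and 4422 CPM in dry eye, 22.9%. A single dry eye cell held 108 Krt12 and 105 Aldh3a1 UMIs with 11 of Cd74 among its 6697, and without it the dry eye level was 13.5% of that of the other cells. Doublets were not called, and whether that droplet held 2 cells was not tested. Without the 5 deepest cells of each library, that cell among them, Krt12 was at 13.9% of its library level in control and 20.2% in dry eye. In 8 dry eye cells and 0 control cells Krt12 UMIs outnumbered those of Cd74, and some of the 8 had no class II UMIs.

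The corneal epithelium list of 14 genes took 0.379 to 1.49% of the UMIs of a control Immune cell and 0.0964 to 4.47% of those of a dry eye cell. Over summed counts this was 0.666% in control (95% interval 0.584 to 0.756%) and 1.16% in dry eye (1.07 to 1.26%), or 0.652% in dry eye without the cell with the most Krt12. Without the 5 deepest cells of each library it was 0.812% in control and 0.931% in dry eye. In all other cells the list took 5.94 and 5.49%, so 8 of its 14 genes were called lower in Immune cells and 0 higher. Relative to the other cells, Gsta4, a glutathione transferase, was at ratios of 0.0671 in control and 0.0865 in dry eye, Krt5, a basal keratin, at 0.106 and 0.263, and Aldh3a1, a corneal crystallin, at 0.23 and 0.399. Krt19 and Muc4 of the conjunctival list had 0 UMIs. How much of this was free RNA in the droplets was not tested.

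Most UMIs of the 8 class markers lay in these 51 cells. Of all UMIs of the 8 markers in a library, 90.6% were in Immune cells in control (95% interval 89.2 to 91.8%) and 86.6% in dry eye (85.1 to 88.0%), and for Tyrobp alone 95.7 and 91.2%. Outside the class, 9 cells held UMIs of at least 3 of the 8, 3 in control (1 Squam, 2 Wing) and 6 in dry eye (3 Conj, 2 TAC2, 1 Wing*). These 9 held 7331 to 92942 UMIs, with 7 to 1291 of Krt12, and carried 306 of the UMIs of the 8 markers between them. After every cell was thinned to 500 UMIs, Cd74 was found in 20 of 20 control and 26 of 31 dry eye Immune cells but in 3 of 17445 (0.0172%) and 2 of 16389 (0.0122%) other cells. Unthinned, the shares in other cells were 0.0803 and 0.159% at their median depths of 8255 and 9099 UMIs. Mmp12 had 92.3% of its UMIs inside the class in control and 29.9% in dry eye, where LSC* cells had the next highest level. Among pan-leukocyte genes the share was lower for several, at 41.1 and 33.6% for Coro1a, 14.0 and 24.4% for Cd53, 70.8 and 40.3% for Srgn, and 1.37 and 1.26% for Lsp1.

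Between the libraries, the Immune cells of dry eye had less C1q and macrophage messenger per UMI than those of control and more of S100a4, Vim and the Ifitm genes. C1qa stood at 6997 CPM in control and 3181 CPM in dry eye, a ratio of 0.455 (95% interval 0.370 to 0.557), C1qb at 5812 and 2681 CPM (0.461) and C1qc at 4345 and 1741 CPM (0.401). Class II was closer to even, at 0.703 for Cd74 (0.637 to 0.776), 0.753 for H2-Ab1, 0.765 for H2-Aa and 0.780 for H2-Eb1. Cd52 (1.03, 0.767 to 1.38) and Rgs1 (0.999, 0.560 to 1.81) did not differ beyond counting error.

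A gene was called different within the class at a ratio of at least 2, or at most 0.5, with an interval that excluded 1. Of 528 genes with at least 20 UMIs in Immune cells, 41 were higher in dry eye (7.77%) and 29 lower (5.49%), and the median log2 ratio over the 526 with UMIs in both libraries was 0.03. The balance turned without the 5 deepest cells of each library, with 8 higher and 16 lower of 266, and with a minimum of 50 UMIs, with 11 and 13 of 212. Of the macrophage list 8 of 12 genes were called lower and 0 higher, with a median of -1.13. For class II genes 0 of 7 were called and the median was -0.41, and for the lysosomal list 2 of 11 were lower with a median of -0.60. Within the immediate early list, which also rises on dissociation, 2 of 4 were lower with a median of -0.88, among them Jun, part of the AP-1 transcription factor, at 1270 and 400.1 CPM (0.315, 0.176 to 0.545).

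Apoe, a lipid carrier, was among the 6 lowest ratios. It had 128 UMIs in 10 control cells, 44 of them in 1 cell, and 60 in 17 dry eye cells (ratio 0.332, 0.240 to 0.455). Cx3cr1 was at 564 and 160.1 CPM (0.284, 0.108 to 0.672). Ccl4, a chemokine for monocytes and T cells, had 25 UMIs in 7 control cells and 0 in the whole dry eye library, and 16 of the 25 lay in 1 cell. Pf4, a platelet and macrophage chemokine, had 8 UMIs in 4 control cells and 0 in dry eye. Mmp12 had 36 UMIs in 17 control cells and 23 in 11 dry eye cells, 10 of them in 1 cell (0.453, 0.256 to 0.786).

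Among the genes highest in dry eye, Ifitm1, S100a4 and Vim came from few cells. The calls of Vim (1.035, 0.119 to 12.4), Ifitm1 (6.21, 0.860 to 272) and Ifitm2 (5.52, 0.740 to 245) ended without the 5 deepest cells of each library. Ifitm1 had 1 UMI in control and 147 in 9 dry eye cells, and its ratio of 104 had an interval of 18.4 to 4145. In all other cells it stood at 2547 and 3389 CPM, against 28.2 and 2941 CPM in Immune cells. S100a4 had 0 UMIs in control and 101 in 7 dry eye cells, at least 23.9-fold higher with a floor of 3. Vim had 2 and 55 UMIs, Ifitm2 2 and 46, Tmsb10 1 and 30, and S100a10, partner of annexin A2, 3 and 56, in 3 control and 14 dry eye cells. S100a10 and Tmsb10 were likewise abundant elsewhere, at 4430.5 and 4922 CPM and 334 and 429 CPM. Il1b had 10 UMIs in 7 control cells and 31 in 7 dry eye cells (2.20, 1.05 to 5.03). Tnf and Cxcl2 had 1 UMI in control and 0 in dry eye, Ccl20 was at 0 in both, and Mki67 had 0 and 2. Keratins 5 and 14 were also called higher in dry eye Immune cells. Krt5 went from 26 to 87 UMIs and Krt14 from 3 to 41, with 44 and 30 of these in 1 cell. Their ratios were 2.37 and 9.69, against 0.960 and 10.6 in all other cells. Without the dry eye cell that held the most Krt12, Krt5 was at 1.35 (0.813 to 2.30) and Krt14 at 3.00 (0.793 to 16.8), neither of them called.

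All 8 cells without C1q were in dry eye, so the make-up of the class also differed between the libraries. Whether that underlies these ratios was not tested. With only the 20 and 23 cells that held class II and C1q UMIs, a choice made after seeing the data, Apoe was at 0.527 (0.381 to 0.722). For C1qa (0.721), C1qb (0.732) and C1qc (0.635) a value nearer to 1 was fixed by the choice itself, which dropped cells without C1q from dry eye alone, and nothing is read from it. Ccl4 had 0 UMIs in the whole dry eye library, so its ratio was 0 for any choice of cells and nothing is read from it. Jun (0.475) and Junb (0.433) kept their calls in the 20 and 23 cells. So did S100a10 (12.4, 3.88 to 63.1), Ifitm1 (9.00, 1.21 to 399), Tubb5, Krt5 and Krt14, which were higher in dry eye. The cell with the most Krt12, without which Krt5 and Krt14 were not called, was still among those cells. Il1b came to 1.01 (0.364 to 2.77), Vim to 1.13 (0.0815 to 15.5) and Ifitm3 to 1.13, and S100a4 had 0 UMIs in both libraries. Among the other named genes the call ended for Mmp12, Cx3cr1, Mgl2, Apoe, Il1b, Vim, Ifitm2, Ifitm3, Tmsb10 and Fabp5. The cells left out held 0 UMIs of Mmp12, Cx3cr1, Mgl2 and Apoe, so the shift of these genes was likewise fixed by the choice. Of the dry eye UMIs of Il1b and Vim, 22 of 31 and 52 of 55 lay in the cells with class II but no C1q, which were left out. Nothing is read from these lost calls either. Without the 5 deepest cells of each library the calls of C1qa (0.624), C1qb (0.820) and C1qc (0.596) ended, S100a10 kept its call (4.37, 1.29 to 23.1), and Il1b (0.394, 0.0846 to 1.55) and Ifitm3 (0.345) lay below 1. In dry eye Immune cells S100a10 stood at 0.228 of its level in the other cells, and Krt12 at 0.229. The same ratios in control were 0.0191 and 0.113. For S100a10 no ratio could be given after free RNA was subtracted, and whether its UMIs were free RNA was not tested. Without the cell with the most Krt12 alone, the calls of C1qa (0.525), C1qb (0.529) and Mmp12 (0.523) ended, as they did after free RNA was subtracted (0.514, 0.521 and 0.512).

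**Figure D5:**
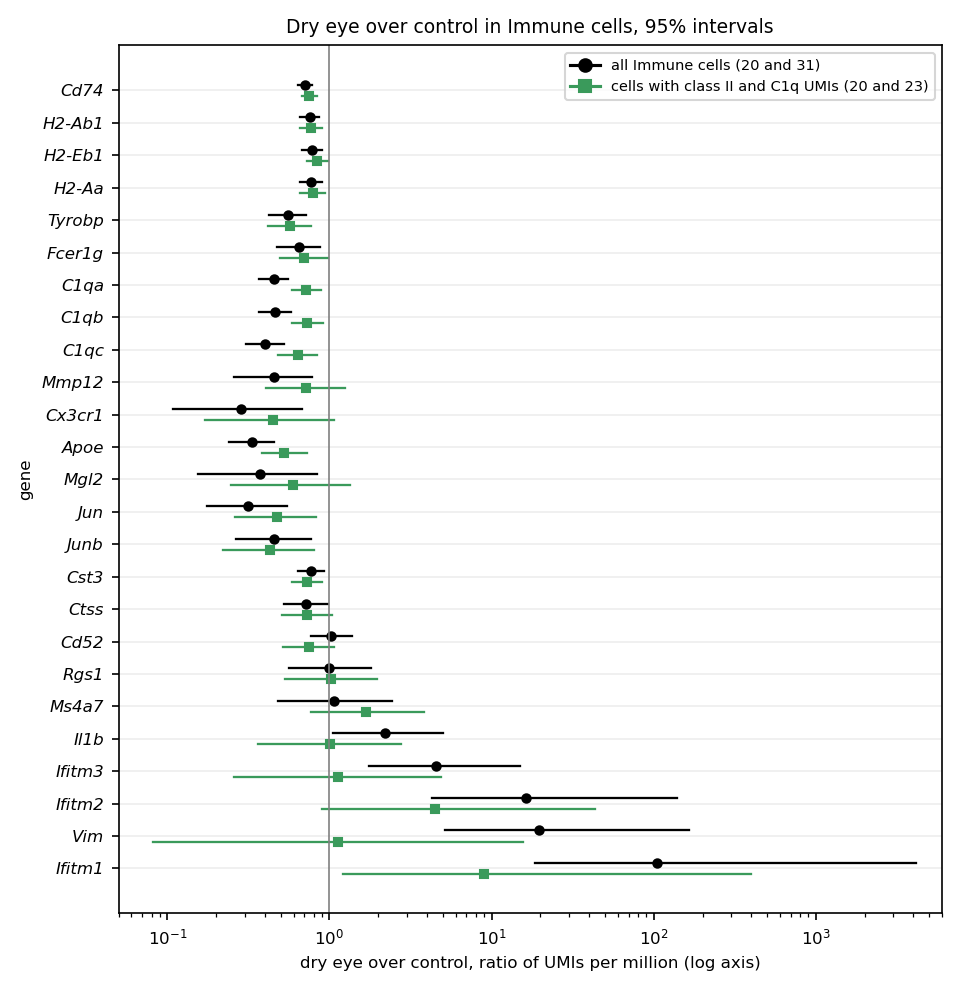
Ratio of dry eye over control CPM on a log axis, with 95% intervals, for 25 genes (vertical axis), over all Immune cells (black circles, 20 and 31 cells) and over those with class II and C1q UMIs (green squares, 20 and 23 cells). Vim went from 19.5 to 1.13 and Cd74 from 0.703 to 0.753 between the 2 sets of cells. Of the 55 dry eye Vim UMIs, 52 lay in the cells with class II but no C1q, which the second set leaves out. The shift of the C1q genes follows from how the second set was chosen. So does that of Mmp12, Cx3cr1, Mgl2 and Apoe, which had 0 UMIs in the cells left out.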

How the data were processed

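The deposited table held whole-number UMI counts per gene and cell (17891 genes, 33885 cells), not normalized by the authors. A second deposited table gave each cell's library and class. The submitters' processing notes name Cell Ranger 6.0.1, Seurat 4 and build mm10. The filters on cells and genes, the way classes were made and any removal of doublets or free RNA are not given in the sources used here. Depth per library is given with the first results.

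Counts were summed per class and library and divided by the summed UMIs (CPM). Ratios and shares had exact Clopper-Pearson intervals and levels exact Poisson intervals, all at 95%. Cells of 1 pool are not replicates, so no p-value was computed. The class, its markers and the 35 gene lists were chosen with earlier results of these data known. Named were the 8 class markers, the 15 genes with the highest lower bound against all other cells, the 3 most counted members of each list, the 6 highest and 6 lowest ratios between libraries and a list set by hand. All other genes, among them Aif1, Csf1r, Cd68, Cd3d, Icos and Cxcr6, were named after their values were seen. The interval code was tested on simulated data. Alternatives changed the cells used, the lowest UMI number, the class compared with, and the free RNA, whose share was set from Krt12. Python 3.11.15 with numpy 2.4.6, scipy 1.17.1, pandas 2.3.3 and matplotlib 3.10.9 was used. Coordinates are from the GENCODE annotation of mm10 and promoters from RefSeq. A result that these rules would name is not reported here.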

Additional observations from a re-analysis of the deposited data

Results flagged for a closer look

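For 4 genes the ratio of dry eye over control within Immune cells lay on the other side of 1 from that in all other cells. Apoe was at 0.332 in Immune cells and 1.92 in the others and Junb at 0.455 and 1.09. Mmp12 was at 0.453 in Immune cells and 16.7 in the others, where it had 57 UMIs over both libraries. Krt5 was at 2.37 in Immune cells and 0.960 in the others, and 44 of its 87 dry eye UMIs lay in 1 Immune cell. With 1 library per group, the difference between these ratios was not tested.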

How the results depend on the processing

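With 1 library per group, counting error was the only error that could be given, and 35442 and 49982 UMIs limit what could be seen. No paired analysis was possible because each group had 1 library, so only 1 replicate number was shared. Of the main values 40 alternatives stayed close and 26 moved, and of the others 264 stayed close, 37 lost their call, 29 moved and 3 reversed. With at least 1000 UMIs per cell the dry eye share was 0.0855%, class II in dry eye 46025 CPM and the share of the 8 markers held 83.4%. Against the class with the highest level, 220 genes were higher and 256 lower, and 111 were lower after free RNA was subtracted. As a mean over cells, class II in control was 64837 CPM, macrophage genes in dry eye 13007 CPM and epithelial RNA in control 0.792%. Without the 5 deepest cells of each library, class II in control was 70155 CPM, macrophage genes 25780 and 16461 CPM, epithelial RNA 0.812 and 0.931%, and 8 genes were higher and 16 lower in dry eye. With at least 50 UMIs, 11 and 13 of 212 were. Chosen after seeing the data were the dry eye library alone (251 higher, 36 lower), the cells with class II and C1q (class II in dry eye 45920 CPM, macrophage 16375 CPM, pan-leukocyte 4633 CPM, and 25 genes higher and 16 lower in dry eye) and leaving out the cell with the most Krt12 (epithelial RNA in dry eye 0.652%). Directions reversed for Fabp5 (0 after free RNA was subtracted, interval 0 to 4.27), and, without the 5 deepest cells, for Il1b (0.394) and Ifitm3 (0.345). No ratio could be given after free RNA was subtracted for Ifitm1, Krt12, Krt5, S100a10 and Tmsb10, nor without the richest cell for Ifitm1 and Tmsb10, where control had 0 UMIs left or neither library had any. The causes were not tested.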
